A study of Mus musculus with 4 samples.

Results

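Gene expression in NSCL61 cells was compared with that in p53-null neural stem cells, using the mouse array titled NSCL61 and the mouse array titled NSC. Both arrays carry RNA of brain origin from E14.5 embryos of genotype p53-/-, so both cell types lack p53. The labels give NSCL61 as a cell line and give the NSC array no line name. NSCL61 is known as a glioma-initiating line derived from p53-deficient neural stem cells that carry an activated Ras, so it is a single line and its differences from NSC are those of that line. The series also holds an array of NSC made to express Ceacam1L (NSC-Ceacam1L) and one of NSCL61 with a Ceacam1 hairpin (NSCL61-Ceacam1sh, here the hairpin array), and the same growth and selection text stands on all 4 samples: serum-free neural stem cell medium, transfected expression vectors and 1 week of hygromycin. Whether the cells titled NSC and NSCL61 carried an empty vector is not stated. All named genes with a probe well above background on either array or on both were compared, which gave 15319 of the 22379 named genes with a probe.

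Neural stem cells of the embryonic brain divide in serum-free medium with growth factors and can become neurons, astrocytes and oligodendrocytes. Growth factor receptors act on them through Ras and the Raf, MEK and ERK kinases, and active ERK switches on immediate early transcription factors together with its own inhibitors, the Sprouty proteins and the dual-specificity phosphatases. Cytokines of the interleukin 6 family act through STAT3 and promote astrocyte genes such as Gfap. Gliomas hold cells that keep stem cell traits, and such cells often carry astrocytic or mesenchymal gene expression beside them.

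Levels are log2 signals relative to the 75th percentile of each array, so 0 is the 75th percentile of the non-control spots. Differences are NSCL61 minus NSC on the log2 scale, and a gene counted as higher or lower when the difference was 2-fold or more and its probe was well above background on the brighter array. With 1 array for each cell type there was no replicate check and no test. The ± beside a difference is the error that the scanner software models for the spots. It covers technical error only, and its median over the genes measured on both arrays was 0.20. For a gene seen on only 1 array the fold is given as a lower bound against the dimmest signal that still counted as well above background on the other array, or against the gene's own signal there if that was higher. Calls rest on the measured signals, so such a bound can be under 2-fold: of the 790 genes called higher and seen on 1 array by any of their probes 442 had a bound of 2-fold or more, and of the 685 called lower 578. Levels of different genes rest on different probes and are not compared with each other.

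Of the 15319 genes, 2204 were higher on the NSCL61 array, which is 14.4%, and 2143 were lower, which is 14%. Every list count below is to be read beside these shares, and a list near them does not stand out. The median difference over all of them was 0.03. Among the 13407 genes measured on both arrays 1400 were higher and 1439 were lower, and 141 and 142 of these differed by 8-fold or more. A further 1177 genes were seen only on the NSCL61 array and 735 only on the NSC array. Across the 12491 genes seen on each of the 4 arrays, Pearson's r was 0.93 between NSC and NSCL61, against 0.97 between NSC and NSC-Ceacam1L and 0.85 between NSCL61 and the hairpin array. Genes are not independent replicates. The array of the hairpin cells thus stood farther from NSCL61 than NSCL61 did from NSC.

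**Figure D1:**
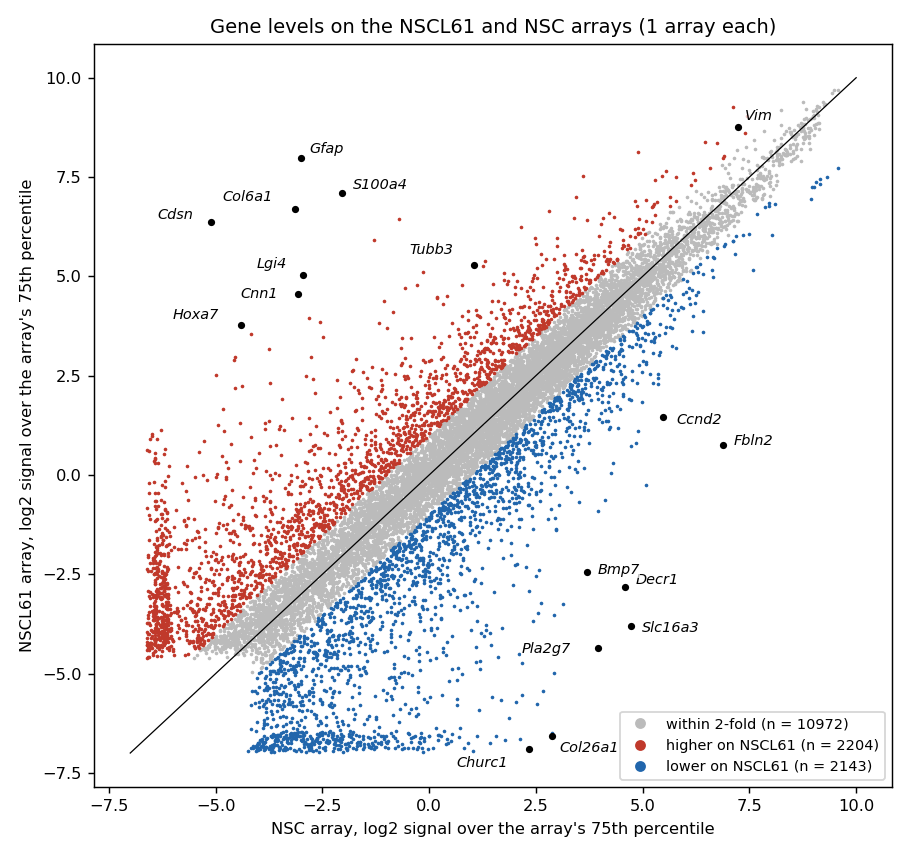
Each point is 1 of the 15319 genes, with its log2 signal relative to the 75th percentile on the NSC array on the horizontal axis and on the NSCL61 array on the vertical axis. Red points are the 2204 genes higher and blue points the 2143 genes lower on NSCL61 by 2-fold or more, the line marks equal levels, and Gfap, Col6a1 and S100a4 lie farthest above it among genes measured on both arrays.

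The labels were set against known genes first. Trp53, the gene of p53, had a level of -1.33 on NSC, -1.61 on NSC-Ceacam1L, -1.52 on NSCL61 and -0.99 on the hairpin array. Its probe was thus well above background in cells labelled p53-/-, and where the probe lies relative to the deletion is not known, so it does not check the genotype. Hras, one of the Ras genes, had a level of 3.46 on NSC and 3.15 on NSCL61 (difference -0.31 ± 0.20), and the probe does not tell a mutated copy from a normal one. The Ceacam genes were measured in part: Ceacam1 itself has no named probe among those used, Ceacam2, Ceacam5 and Ceacam16 were not well above background on either array, and Ceacam20 was at -2.47 on NSC and -2.63 on NSCL61. Sox11, a transcription factor of immature neural cells, was at 2.56 on NSC and 2.33 on NSCL61, a difference of -0.23 ± 0.20.

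Most of the listed neural stem cell genes were seen on both arrays. All 33 listed neural stem and radial glia genes were evaluated, and 33 were well above background on NSC and 31 on NSCL61. Sox2, a core stem cell factor, was at 3.55 on NSC and 4.12 on NSCL61. Nes, the intermediate filament nestin, was at 5.68 on NSC and 6.13 on NSCL61, and Sox1, an early neural factor, at 2.17 on NSC and 2.56 on NSCL61. None of these markers, named here as a check of the label, differed by 2-fold. Of the whole list 3 were higher and 8 lower, with a median of -0.34. Vim, the intermediate filament vimentin, was the largest of the higher ones at 7.22 on NSC and 8.76 on NSCL61 (1.54 ± 0.20), followed by the developmental factors Sall1 (1.32 ± 0.20) and Nfix (1.06 ± 0.20). Prom1, the surface protein CD133 that is widely used to mark stem cells, had 0.01 on NSC and -5.58 on NSCL61, where it was not well above background, and was at least 24.8-fold lower. Fut4, which makes the SSEA-1 surface sugar, was at least 2.72-fold lower. Hopx, a homeodomain protein of radial glia and quiescent stem cells, was lower, with 2.50 on NSC and -0.43 on NSCL61 (-2.92 ± 0.21), and so was the zinc finger factor Sall3 (-2.39 ± 0.21).

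Markers of other cell types were partly present. Of 17 microglia and macrophage markers 7 were seen on either array, and Aif1, Ptprc, Trem2, Tyrobp and P2ry12 were seen on neither. Of 15 endothelial markers 8 were seen, without Tek, Tie1, Cldn5 or Emcn. Of the fibroblast list 8 of 16 and of the epithelial list 5 of 12 were seen, and 6 of 11 pericyte, 7 of 10 choroid plexus and ependyma, and 7 of 10 neural crest markers were seen. More of each list were seen on NSCL61 than on NSC, apart from the epithelial list, which had 5 on both. The NSCL61 array also had more probes well above background in general, 29335 against 27414 on NSC. A somewhat larger count therefore does not set these lists apart. The fibroblast list had 4 on NSC and 8 on NSCL61, and the microglial and endothelial lists had 5 and 6 on NSC against 7 and 8 on NSCL61. Of the markers seen, 2 of 7 microglial ones were higher on NSCL61 and 0 lower, and 3 of 8 endothelial ones were higher and 2 lower. In the choroid plexus and ependyma list 4 of 7 were higher and 0 lower, and in the neural crest list 3 of 7 and 1. The epithelial list had 1 of 5 higher and 0 lower. Each list is short. The part of such cells in the results below was not tested.

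The largest difference among genes measured on both arrays was that of Gfap, the intermediate filament of astrocytes. Its probe lies at chr11:102751813-102751872 in mm9, and its level was -3.01 on NSC, 4.32 on NSC-Ceacam1L, 7.97 on NSCL61 and -6.75 on the hairpin array. That is a difference of 10.98 ± 0.25 and a 2017-fold higher signal on NSCL61. The NSCL61 and NSC-Ceacam1L arrays were high and the NSC and hairpin arrays low. Col6a1, a chain of the beaded filament collagen VI, came next, with -3.14 on NSC, -1.53 on NSC-Ceacam1L, 6.70 on NSCL61 and 3.27 on the hairpin array (9.85 ± 0.28, probe at chr10:76171538-76171597). Col6a2, the neighbouring gene for its partner chain, had -4.18 on NSC, -2.96 on NSC-Ceacam1L, 3.54 on NSCL61 and -0.28 on the hairpin array (7.72 ± 0.34). For both chains the NSC and NSC-Ceacam1L arrays were low and the NSCL61 array was the highest of the 4. S100a4, a calcium-binding protein linked with cell motility, had -2.05 on NSC, -0.01 on NSC-Ceacam1L, 7.10 on NSCL61 and 8.55 on the hairpin array (9.15 ± 0.22). Here both NSCL61 arrays were high and both NSC arrays low.

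The other leading genes on the higher side had various roles. Lgi4, a secreted glial protein needed for Schwann cell myelination, had -2.95 on NSC and 5.03 on NSCL61 (7.98 ± 0.26), and Cnn1, a calponin of smooth muscle that binds actin, had -3.07 on NSC and 4.55 on NSCL61 (7.62 ± 0.25). Sulf1, which trims sulfate groups from heparan sulfate outside the cell, had -1.28 on NSC and 5.91 on NSCL61 (7.20 ± 0.21). Vgf, a neuropeptide precursor, had -0.72 on NSC and 6.45 on NSCL61 (7.17 ± 0.21). In the hairpin cells these 4 genes lay far below NSCL61, at -2.86 for Lgi4, -4.14 for Cnn1, -4.56 for Sulf1 and -1.66 for Vgf. Cyp4f14, a fatty acid and leukotriene hydroxylase, differed by 6.93 ± 0.33, the stress protein Nupr1 by 6.76 ± 0.24 and the formin Inf2 by 6.40 ± 0.24. Sprr1a, a protein of the cornified envelope that injured neurons also make, differed by 6.04 ± 0.32. The complement component C4b differed by 5.96 ± 0.22, the death receptor Fas by 5.74 ± 0.24 and the extracellular matrix protein Ecm1 by 5.46 ± 0.21.

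On the lower side metabolism and transport genes led. Slc16a3, the lactate exporter MCT4, had 4.74 on NSC, -0.96 on NSC-Ceacam1L, -3.81 on NSCL61 and -3.26 on the hairpin array, a difference of -8.54 ± 0.26 and a 373-fold lower signal on NSCL61 than on NSC (probe at chr11:120820030-120820089). NSC was the one high array of the 4. Pla2g7, an enzyme that breaks down platelet-activating factor, had 3.95 on NSC, 6.27 on NSC-Ceacam1L, -4.34 on NSCL61 and 4.24 on the hairpin array (-8.30 ± 0.34), and in this case NSCL61 was the one low array of the 4. Decr1, an enzyme of mitochondrial fatty acid oxidation, had 4.58 on NSC and -2.83 on NSCL61 (-7.41 ± 0.23), and Bdh1, which interconverts ketone bodies, had 3.14 on NSC and -3.25 on NSCL61 (-6.39 ± 0.23). Smim20, a small mitochondrial protein needed for cytochrome c oxidase assembly, differed by -6.62 ± 0.35.

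The rest of the leading lower genes had various roles. Bmp7, a bone morphogenetic protein, had 3.69 on NSC, 2.43 on NSC-Ceacam1L, -2.45 on NSCL61 and -6.88 on the hairpin array (-6.14 ± 0.21). Both NSCL61 arrays were low and both NSC arrays high. Fbln2, a fibulin of basement membranes, had 6.88 on NSC and 0.76 on NSCL61 (-6.11 ± 0.20), and Cd93, a surface glycoprotein of endothelial and myeloid cells, had 2.43 on NSC and -3.67 on NSCL61 (-6.10 ± 0.26). H2-Ab1, an MHC class II chain, had 2.54 on NSC and -3.47 on NSCL61 (-6.01 ± 0.24). Rprm, a p53-responsive inhibitor of cell division, differed by -5.86 ± 0.25, the synaptic immediate early gene Arc by -5.75 ± 0.34, and the X-linked diacylglycerol kinase Dgkk by -5.56 ± 0.28. Tmem37, a calcium channel subunit, differed by -5.43 ± 0.33, Car8, a protein of the carbonic anhydrase family, by -5.39 ± 0.27, and Scg5, a secretory granule chaperone, by -5.34 ± 0.30.

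Among genes seen on NSCL61 but not on NSC the largest bound was that of Cdsn, corneodesmosin, a protein of skin cell junctions. Its level was -5.10 on NSC, -2.87 on NSC-Ceacam1L, 6.36 on NSCL61 and -2.93 on the hairpin array, which is at least 1560.4-fold higher on NSCL61 than on NSC, and the other 3 arrays were all low. Hoxa7, a homeobox gene that sets position along the body axis, had -4.40 on NSC and 3.79 on NSCL61 and was at least 262-fold higher. The membrane-binding annexin Anxa1 was at least 109-fold higher, with -4.99 on NSC, -2.48 on NSC-Ceacam1L, 2.52 on NSCL61 and 7.71 on the hairpin array. Anxa1 was thus high on both NSCL61 arrays. The membrane protein Emp3, at least 90.0-fold, the G protein regulator Rgs8, at least 85.9-fold, the cytidine deaminase Cda, at least 59.7-fold, and the aryl hydrocarbon receptor Ahr, at least 46.8-fold, followed.

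Among genes seen on NSC but not on NSCL61, Prxl2b, a peroxiredoxin-like enzyme of prostaglandin synthesis, had 2.93 on NSC and -4.99 on NSCL61 and was at least 188-fold lower. The collagen gene Col26a1 had 2.89 on NSC, 3.26 on NSC-Ceacam1L, -6.58 on NSCL61 and -6.57 on the hairpin array and was at least 182-fold lower. It was not seen on either NSCL61 array. Gprasp2, which sorts G protein-coupled receptors, was at least 179.8-fold lower, and Syce2, a component of the meiotic synaptonemal complex, at least 156-fold. Car3, a carbonic anhydrase, was at least 142-fold lower, Adgre5, the adhesion receptor CD97, at least 111-fold, and the mitochondrial glutathione transferase Gstk1 at least 110.5-fold. Churc1, a zinc-binding regulator of FGF responses, had 2.33 on NSC, 2.72 on NSC-Ceacam1L, -6.90 on NSCL61 and 3.04 on the hairpin array and was at least 124-fold lower. It was high on all arrays but that of NSCL61.

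Detection over the 4 arrays was counted with NSCL61 or NSC as the lone array, and with both NSC arrays set against both NSCL61 arrays. Genes seen or missed only on NSC-Ceacam1L or only on the hairpin array were not counted. The counts therefore do not show that NSCL61 stood alone unusually often. In all, 211 genes were well above background on the other 3 arrays and on no probe of NSCL61, and 270 were seen on both NSC arrays and on neither NSCL61 array. In the other direction 450 genes were seen on NSCL61 only and 156 on both NSCL61 arrays and neither NSC array. NSC alone lacked 281 genes and alone showed 193. Of the 1400 higher genes measured on both arrays, 1043 had a level on the NSC-Ceacam1L array between those of NSC and NSCL61, and so had 992 of the 1439 lower ones. On the hairpin array 586 of the 1400 were at or below the NSC level and 338 at or above the NSCL61 level. Of the 1439 lower genes 534 were at or above the NSC level there and 521 at or below the NSCL61 level. These arrays share the NSC or NSCL61 values in each comparison, so such counts describe the 4 arrays and are not independent of each other. The higher and lower genes were chosen for their gap between NSC and NSCL61, and another array can fall inside that gap through this choice alone. The same share over all compared genes was not counted, so these counts do not show NSC-Ceacam1L to be intermediate.

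Genes of differentiated neural cells were compared next. Of the 33 astrocyte genes evaluated 16 were higher and 5 lower, with a median of 0.80 against 0.03 for all genes. After Gfap the largest were Itih3, a hyaluronan-binding inhibitor chain, with -0.56 on NSC and 4.70 on NSCL61 (5.26 ± 0.21), Agt, angiotensinogen, with -1.46 on NSC and 2.45 on NSCL61 (3.91 ± 0.21), Gja1, the gap junction protein connexin 43, with -1.13 on NSC and 2.40 on NSCL61 (3.53 ± 0.21), and the neurotensin receptor Ntsr2 with 0.84 on NSC and 3.59 on NSCL61 (2.75 ± 0.20). Not all of the list went the same way. Slc7a10, a serine transporter, was at least 4.10-fold lower, and Sparcl1, a secreted synapse-promoting protein, had 5.38 on NSC and 3.51 on NSCL61 (-1.87 ± 0.20). Aldh1l1, a folate enzyme used as an astrocyte marker, was lower as well, with 5.56 on NSC and 3.72 on NSCL61 (-1.84 ± 0.20), and so was Cbs, an enzyme of cysteine synthesis (-1.15 ± 0.20).

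Of the neuronal genes 15 of 36 were higher and 4 lower, with a median of 0.79, and 7 and 3 with normexp background correction. Nefh, the heavy neurofilament, was at least 16.9-fold higher, with -6.44 on NSC and -0.17 on NSCL61. Tubb3, the neuronal beta tubulin, had 1.05 on NSC, 1.30 on NSC-Ceacam1L, 5.29 on NSCL61 and 0.64 on the hairpin array (4.23 ± 0.20), so NSCL61 was the one high array. The secreted guidance protein Reln was at least 3.24-fold higher, the microtubule regulator Stmn4 differed by 2.59 ± 0.20, and the interneuron factor Dlx1 was at least 2.0-fold higher. Lower were Rbfox3, the mature neuron marker NeuN, by at least 2.87-fold, the granule protein Chga (-2.64 ± 0.21), the stathmin Stmn3 (-2.49 ± 0.20) and the RNA-binding protein Elavl4 (-1.75 ± 0.21).

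In the oligodendrocyte lineage 3 of 30 genes were higher, 1 with normexp, and 7 lower, with a median of 0.10 that became -0.11 with spike-in scaling. Precursor and myelin genes led the lower side. Cspg4, the proteoglycan NG2 of precursor cells, had 1.14 on NSC and -1.68 on NSCL61 (-2.82 ± 0.21), and Nkx2-2, a factor that drives their maturation, had 0.62 on NSC and -1.96 on NSCL61 (-2.58 ± 0.21). The myelin protein Mbp was lower, with -2.80 on NSC and -5.46 on NSCL61, where this probe, unlike another of the gene, was not well above background. Tmem100, a membrane protein, differed by -2.08 ± 0.21, and Gpr37, a receptor of myelinating cells, was at least 2.93-fold lower. The myelin lipid enzyme Fa2h (1.89 ± 0.28), the myelin protein Mal (1.45 ± 0.24) and the choline phosphodiesterase Enpp6 (at least 1.72-fold) were higher.

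Receptors for glutamate and GABA, the main transmitters of the brain, were lower in 14 of 27 cases and higher in 4, with a median of -1.40, or -0.77 with the genes seen on 1 array at their bound. With normexp 6 were lower and 2 higher. Gabrg1, a GABA-A receptor subunit, had 2.06 on NSC and -2.24 on NSCL61 (-4.30 ± 0.21), and the subunits Gabra3 and Gabra2 were at least 8.53-fold and 3.76-fold lower. Gria3, an AMPA receptor subunit, was at least 2.42-fold lower, and the NMDA receptor subunit Grin3a differed by -2.74 ± 0.24. Of the 4 higher ones, Grin2d was at least 2.53-fold, Gabbr2 at least 2.59-fold and Grik1 at least 2.57-fold higher, and Grik3 differed by 1.92 ± 0.25. With only the probes named through an accession Grik1 turned to -0.62.

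Regional factors, which give parts of the neural tube their identity, were mixed: 12 of 37 were higher and 11 lower, the latter 7 with normexp. Foxa1, a floor plate and endoderm factor, was at least 29.5-fold higher, with -6.60 on NSC and 0.64 on NSCL61. Six3, a forebrain and eye field factor, had 0.28 on NSC and 3.31 on NSCL61 (3.04 ± 0.20), Nr2f2, of caudal forebrain, had -1.70 on NSC and 1.18 on NSCL61 (2.88 ± 0.21), and the zinc finger factors Gata2 and Gata3 were at least 2.83-fold and 1.87-fold higher. Lower were Gsx2, a factor of the ventral forebrain, by at least 7.60-fold, the forebrain factor Otx1 by at least 6.06-fold, Irx2 by at least 2.58-fold, and Lmx1a by at least 2.43-fold.

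Hox genes, which set position along the body axis, are normally little expressed in forebrain. Of the 38 Hox genes described here only 9 were well above background on either array. Of these, 6 genes, all of the Hoxa cluster, were higher on NSCL61, and none of them was seen on NSC. Hoxa2 was at least 4.27-fold higher, Hoxa3 at least 38.9-fold and Hoxa4 at least 6.30-fold. Hoxa5 was at least 16.6-fold, Hoxa6 at least 1.71-fold and Hoxa7, as given above, at least 262-fold higher. Hoxa9 had -4.09 on NSC and -3.50 on NSCL61 (0.60 ± 0.36), less than 2-fold apart. Hoxa10, Hoxa11 and Hoxa13 were not well above background on either array. On the hairpin array Hoxa3 was at -5.93, Hoxa5 at -6.88 and Hoxa7 at -1.31, all below their NSCL61 levels of 1.04, -0.19 and 3.79.

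The probes from Hoxa2 to Hoxa13, at chr6:52112595-52209039 in mm9, were read together. Of these 18 probes 10 were well above background on NSCL61 and 1 on NSC, and 8 were higher by 2-fold or more. The higher ones ran without interruption of named genes from Hoxa2 to Hoxa7. They included a probe named for Hoxaas3 (-6.13 on NSC and -3.61 on NSCL61) and 1 probe without a gene name. The Hoxaas3 probe is placed on the minus strand, like the probes of Hoxa6 and Hoxa7 beside it, so it does not show an antisense transcript. Both probes of Hoxa13 stayed at background. The other clusters gave 2 genes, both lower: Hoxb3 had -1.16 on NSC and -3.88 on NSCL61 (-2.72 ± 0.31), and Hoxc12 was at least 25-fold lower, with 0.02 on NSC, -4.90 on NSC-Ceacam1L, -4.65 on NSCL61 and -4.55 on the hairpin array. Both genes were highest on the NSC array.

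**Figure D2:**
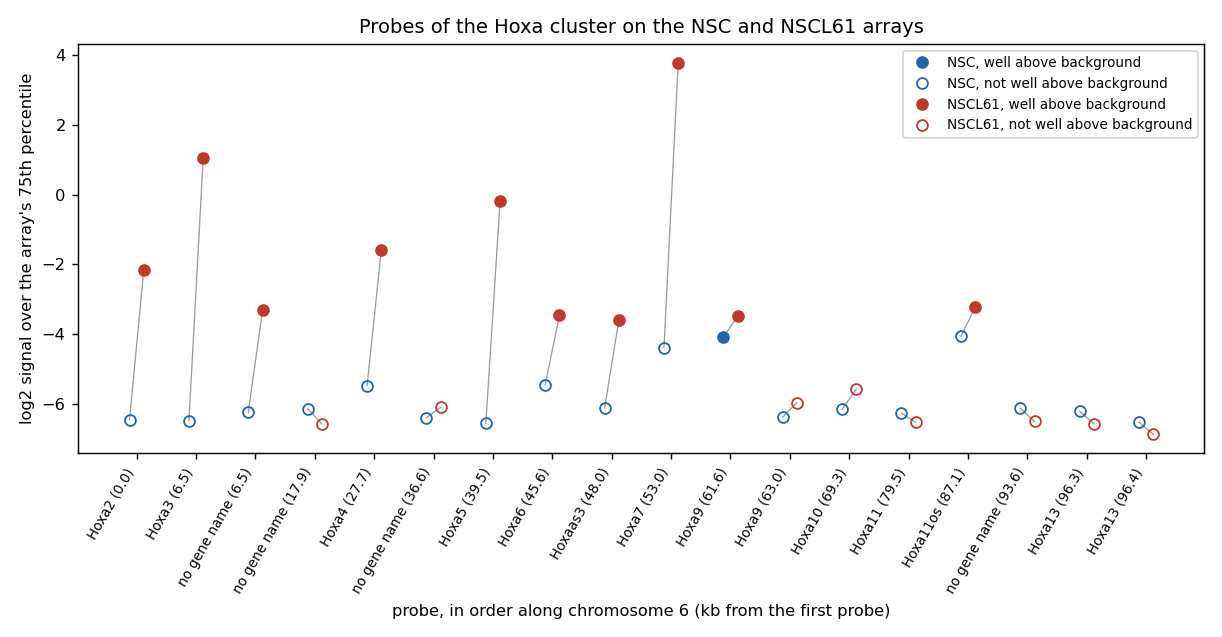
Signals of the 18 probes from Hoxa2 to Hoxa13, in order along chromosome 6, as log2 of the signal over the 75th percentile of each array, with NSC in blue and NSCL61 in red. Filled circles are well above background and open ones are not, and the figure in brackets is the distance in kb from the first probe, so the named genes with a raised NSCL61 signal run from Hoxa2 to Hoxa7, and the 2 arrays lie close together from Hoxa9 to Hoxa13.

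Almost without exception, replication and mitosis genes had lower signals on the NSCL61 array. Of the 39 G1/S and DNA replication genes evaluated 34 were lower by 2-fold or more and 0 were higher, and of the 38 G2/M and mitosis genes 37 were lower and 0 were higher, where 14% of all genes were lower. The medians were -2.01 and -2.07. Under the alternatives tried they stayed between -2.22 and -1.84 and between -2.28 and -1.80. The single mitosis gene within 2-fold was Cdc25b, a phosphatase that starts mitosis (-0.74 ± 0.20).

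Tk1, thymidine kinase, which feeds DNA synthesis, had 3.96 on NSC, 2.82 on NSC-Ceacam1L, -0.91 on NSCL61 and 5.99 on the hairpin array, the largest difference of the list at -4.87 ± 0.21. NSCL61 was the lowest array and the hairpin array the highest. Cdc6, which loads the replicative helicase, had -0.17 on NSC, -1.78 on NSC-Ceacam1L, -3.32 on NSCL61 and 1.15 on the hairpin array (-3.15 ± 0.24). Rrm2, a subunit of ribonucleotide reductase, had 5.36 on NSC and 2.28 on NSCL61 (-3.08 ± 0.20), Mcm10, a replication initiation factor, had 2.60 on NSC and -0.39 on NSCL61 (-2.99 ± 0.21), and Orc1, of the origin recognition complex, was at least 3.31-fold lower. On the mitotic side Ccnb2, a mitotic cyclin, had 4.85 on NSC, 3.95 on NSC-Ceacam1L, 0.81 on NSCL61 and 4.87 on the hairpin array (-4.04 ± 0.20), and Mybl2, a factor that activates mitotic genes, had 2.82 on NSC and 0.19 on NSCL61 (-2.63 ± 0.20). Aurkb, a kinase of chromosome segregation, was at least 5.14-fold lower, the centromere protein Cenpf differed by -2.75 ± 0.36 and survivin, Birc5, by -2.58 ± 0.20.

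The 4 arrays fell in the same order for the medians of both lists. The median level of the G1/S genes was 3.56 on NSC, 2.46 on NSC-Ceacam1L, 1.32 on NSCL61 and 4.09 on the hairpin array, and that of the G2/M genes was 3.06, 1.99, 1.12 and 3.42. On the NSC-Ceacam1L array 35 of the 39 and 38 of the 38 lay between NSC and NSCL61, as did 992 of all 1439 lower genes measured on both arrays. On the hairpin array 39 of 39 and 38 of 38 lay above NSCL61, while 521 of those 1439 lay at or below it. Nearly all genes of the 2 lists have a wide gap between NSC and NSCL61, and another array can fall inside it for that reason alone. The genes of a list are not independent replicates, so these counts do not show an ordered series. Each group is 1 array, so growth state at harvest and cell line cannot be told apart.

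**Figure D3:**
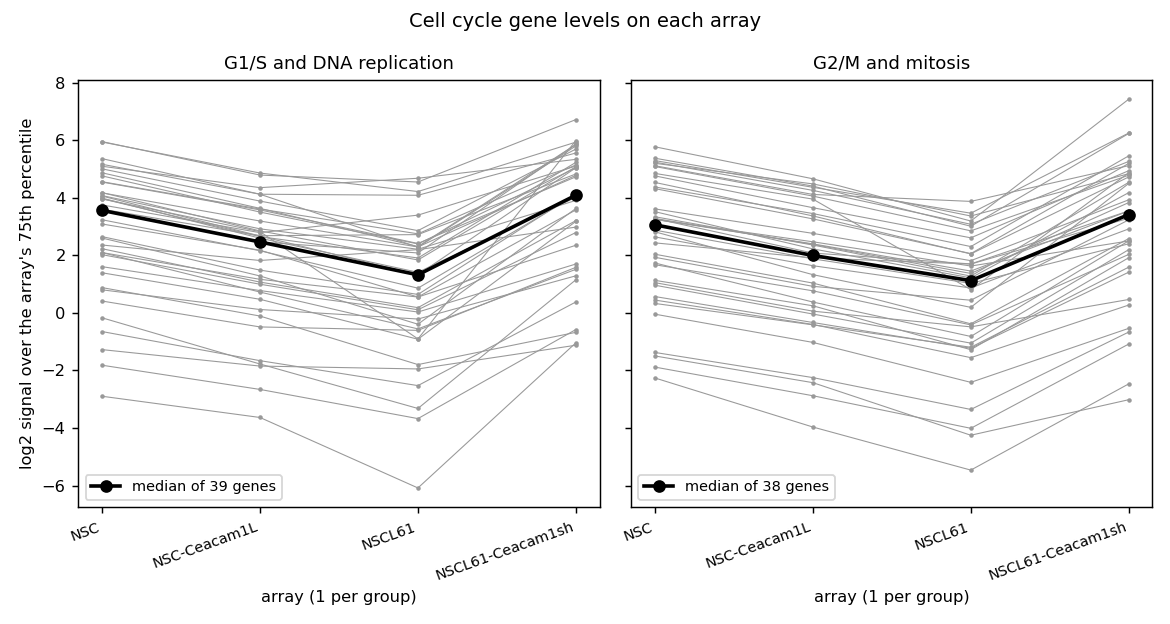
Levels of the 39 G1/S and 38 G2/M genes on the 4 arrays, as log2 of the signal over the 75th percentile of each array, 1 grey line per gene and the median in black. The median was lowest on NSCL61 in both panels, at 1.32 and 1.12, and highest on the hairpin array, at 4.09 and 3.42.

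E2F factors bind the promoters of many replication genes, and their motif was looked for in RefSeq promoter windows (build GRCm38.p6), each of 300 bases around an annotated start. The motifs TTTCCCGC and TTTGGCGC, on either strand, were found in 11 of the 33 G1/S genes with a window. They were found in 371 of the 12016 evaluated genes with a window (3.09%) and in 514 of all 32851 windows (1.56%). Of the higher genes 33 of 1701 held one (1.94%) and of the lower genes 78 of 1639 (4.76%). These are counts of letters, with no test. Shown are 4 of the lower replication genes whose match lies before the start, chosen after their values were seen, each with the 170 bases before it, 5′ to 3′ on the strand of the gene, and the matches in capitals. Mcm5, Mcm6 and Mcm7 code for subunits of the replicative helicase, and their levels were 3.97 on NSC and 1.91 on NSCL61 for Mcm5, 5.95 on NSC and 4.55 on NSCL61 for Mcm6 and 5.16 on NSC and 4.09 on NSCL61 for Mcm7.
Cdc6: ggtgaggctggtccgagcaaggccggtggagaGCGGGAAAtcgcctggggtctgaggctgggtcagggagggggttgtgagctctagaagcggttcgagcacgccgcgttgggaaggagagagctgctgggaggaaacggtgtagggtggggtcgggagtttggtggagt
Mcm5: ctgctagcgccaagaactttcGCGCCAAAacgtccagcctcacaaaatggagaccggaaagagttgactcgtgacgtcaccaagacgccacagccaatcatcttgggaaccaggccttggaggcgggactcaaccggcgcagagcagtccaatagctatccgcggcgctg
Mcm6: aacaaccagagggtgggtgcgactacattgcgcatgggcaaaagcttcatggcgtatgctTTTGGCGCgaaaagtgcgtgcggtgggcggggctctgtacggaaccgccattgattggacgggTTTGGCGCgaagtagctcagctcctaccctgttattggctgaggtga
Mcm7: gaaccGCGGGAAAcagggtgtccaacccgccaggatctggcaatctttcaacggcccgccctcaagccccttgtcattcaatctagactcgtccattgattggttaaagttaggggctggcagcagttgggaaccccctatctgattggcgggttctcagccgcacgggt

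The match began -138 bases from the start in Cdc6 (chr11:98907981-98908150, plus strand), -149 in Mcm5 (chr8:75109339-75109508, plus strand) and -165 in Mcm7 (chr5:138171884-138172053, minus strand), where -1 is the base next to the start. Mcm6 (chr1:128359706-128359875, minus strand) held 2 matches, the first at -110. Differences in these genes were -3.15 ± 0.24 for Cdc6, -2.06 ± 0.20 for Mcm5, -1.40 ± 0.20 for Mcm6 and -1.08 ± 0.20 for Mcm7.

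Cyclins and their inhibitors gave 2 higher and 6 lower genes of 16. Among the D cyclins, which pair with Cdk4 to start the cell cycle, Ccnd2 had 5.49 on NSC, 4.29 on NSC-Ceacam1L, 1.47 on NSCL61 and 1.74 on the hairpin array (-4.02 ± 0.20) and Ccnd1 had 6.42 on NSC, 5.29 on NSC-Ceacam1L, 4.14 on NSCL61 and 5.96 on the hairpin array (-2.28 ± 0.20). Ccnd2 was low on both NSCL61 arrays, and Ccnd1 was lowest on NSCL61. Ccnd3 was at 5.09 on NSC and 5.55 on NSCL61 (0.45 ± 0.20). Ccne1, a cyclin of S phase entry, had 3.49 on NSC and 0.36 on NSCL61 (-3.13 ± 0.20). Cdk4 (0.20 ± 0.20) and Cdk2 (-0.71 ± 0.21) lay within 2-fold. Cdkn1a, the inhibitor p21 and a classic p53 target, had -3.72 on NSC, -3.50 on NSC-Ceacam1L, 0.00 on NSCL61 and 1.02 on the hairpin array in these p53-null cells, a difference of 3.72 ± 0.31. By this probe it was higher on both NSCL61 arrays than on both NSC arrays. Its other 2 probes were not well above background on any array, and with the mean over all probes the difference was 0.9959, just under 2-fold. Cdkn2b, the inhibitor p15, had 2.92 on NSC and -0.06 on NSCL61 (-2.98 ± 0.20), and Cdkn1c, p57, had 1.84 on NSC and 0.76 on NSCL61 (-1.08 ± 0.20). Cdkn2a, whose locus makes p16 and p19Arf, was high on both arrays at 6.40 on NSC and 6.26 on NSCL61 (-0.13 ± 0.20) and stood at 1.47 on the hairpin array. Cdkn1b (0.30 ± 0.20), Cdkn2c (-0.35 ± 0.20) and Cdkn2d (-0.53 ± 0.20) lay within 2-fold. In the retinoblastoma family Rb1 was higher (1.29 ± 0.20), Rbl1 was lower (-1.92 ± 0.21) and Rbl2 lay within 2-fold (0.42 ± 0.21).

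The 32 genes of the p53 target list, which does not hold Cdkn1a, gave 5 higher and 5 lower of 31 evaluated, the latter 3 with normexp, near the share of all genes. The death receptor Fas (5.74 ± 0.24), the growth arrest gene Gadd45a (2.18 ± 0.21), the xylulose reductase Dcxr (1.92 ± 0.21), the death gene Bbc3 (1.42 ± 0.20) and the stress sensor Sesn1 (1.34 ± 0.20) were higher. The epoxide hydrolase Ephx1 (-2.56 ± 0.20), Phlda3 (-1.87 ± 0.20), Psrc1 (-1.38 ± 0.21) and Btg2 (-1.01 ± 0.20) were lower, and Perp, a junction protein, at least 3.23-fold lower.

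Because the line is known for an activated Ras, the Ras genes and the ERK pathway were examined. Of the 19 Ras family genes evaluated 5 were higher and 1 lower, with a median of 0.38, and 3 and 0 with normexp. Hras, as given above, lay within 2-fold, and so did Nras, at 2.87 on NSC and 2.67 on NSCL61 (-0.20 ± 0.20). Mras, which helps activate Raf with Shoc2, had 1.69 on NSC, 2.21 on NSC-Ceacam1L, 4.18 on NSCL61 and 2.12 on the hairpin array (2.48 ± 0.20), so NSCL61 was the highest array. Rras2 had -1.28 on NSC and 0.25 on NSCL61 (1.53 ± 0.21), Rasl11b -1.61 on NSC and 0.05 on NSCL61 (1.66 ± 0.21) and Rasl11a 0.85 on NSC and 1.92 on NSCL61 (1.07 ± 0.20). Rasd1, a Ras protein induced by dexamethasone, was at least 2.05-fold higher. Rasl12 was the lower one (-1.20 ± 0.21). A further 10 ranged from -0.59 ± 0.20 for Ralb to 0.96 ± 0.20 for Rap1b and comprised Diras1 (-0.17 ± 0.25), Rap1a (-0.06 ± 0.22), Rasl10b (0.12 ± 0.21), Rala (0.36 ± 0.20), Rras (0.38 ± 0.20), Diras2 (0.55 ± 0.21), Rit1 (0.66 ± 0.20) and Rasd2 (0.76 ± 0.22).

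Regulators and kinases around Ras were next. Of 21 activators and inhibitors 4 were higher and 2 lower, 2 and 2 with spike-in scaling, and 2 and 1 with normexp. The GTPase-activating proteins Rasa2 (1.82 ± 0.21) and Rasa4 (1.34 ± 0.28) and the adaptors Frs2 (1.16 ± 0.20) and Gab2 (1.09 ± 0.34) were higher, and the adaptors Shc2 (-2.39 ± 0.24) and Shc3 (-1.08 ± 0.20) lower. Of 28 Raf, MEK and ERK genes with their scaffolds and Ras effectors 7 were higher and 1 lower. Mapk3, the kinase ERK1, had 2.85 on NSC and 4.15 on NSCL61 (1.31 ± 0.20). The Ras effector Rin1 was at least 3.67-fold higher, and Plce1 (1.78 ± 0.21), Rgl1 (1.47 ± 0.20) and Ralgds (1.43 ± 0.20) were higher too. Rassf3 was lower (-2.41 ± 0.22).

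The inhibitors that ERK signalling induces were split. Of 20 evaluated 7 were lower, where 14% of all genes were, and 4 were higher. With normexp 4 were lower. Spry4, a Sprouty protein, had 0.27 on NSC, -0.69 on NSC-Ceacam1L, -3.03 on NSCL61 and -0.32 on the hairpin array (-3.29 ± 0.23), Spry1 4.20 on NSC, 3.81 on NSC-Ceacam1L, 1.36 on NSCL61 and 0.45 on the hairpin array (-2.83 ± 0.20) and Spry2 -0.22 on NSC, 0.20 on NSC-Ceacam1L, -2.08 on NSCL61 and -1.80 on the hairpin array (-1.86 ± 0.21). NSCL61 was below both NSC arrays for all 3 Sprouty genes. Dusp6, the phosphatase that acts on ERK in the cytoplasm, had 5.24 on NSC, 4.79 on NSC-Ceacam1L, 2.32 on NSCL61 and 4.25 on the hairpin array (-2.93 ± 0.20). Dusp2 (-1.48 ± 0.23), Dusp7 (-1.20 ± 0.21) and Spred3 (-1.05 ± 0.36) were lower as well. Higher were Rgs4, an inhibitor of G protein signalling, with -5.40 on NSC, -2.37 on NSC-Ceacam1L, 0.59 on NSCL61 and -4.73 on the hairpin array and at least 28.5-fold, Dusp14 (2.49 ± 0.20), Dusp5, the nuclear ERK phosphatase, by at least 4.14-fold, and Dusp1 (1.33 ± 0.20). The other 9 lay within 2-fold, from Spred2 (-0.68 ± 0.20) to Errfi1 (0.98 ± 0.20), with Spred1 at -0.27 ± 0.20, Dusp16 at 0.18 ± 0.20, Dusp10 at 0.26 ± 0.20, Lrig1 at 0.35 ± 0.20, Dusp4 at 0.39 ± 0.22, Dusp8 at 0.56 ± 0.20 and Il17rd at 0.69 ± 0.20. The list's median was 0.22, and -0.04 over the genes well above background on both arrays.

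Transcription factors that ERK induces went both ways. Of 32 genes 13 were lower and 6 higher. The ETS factors Etv4, with 4.41 on NSC and 1.74 on NSCL61 (-2.67 ± 0.20), and Etv5, with 6.24 on NSC and 4.33 on NSCL61 (-1.91 ± 0.20), were lower. Egr4, an early growth response factor, had 2.82 on NSC and -0.48 on NSCL61 (-3.30 ± 0.21), and Fosb had 2.73 on NSC and 0.56 on NSCL61 (-2.17 ± 0.20). Ier3, an early response gene that limits cell death, had 1.77 on NSC, 0.79 on NSC-Ceacam1L, -6.67 on NSCL61 and 5.66 on the hairpin array and was at least 84.3-fold lower on NSCL61, the only array where it was not seen. The AP-1 members Fos, with 5.19 on NSC and 5.17 on NSCL61 (-0.03 ± 0.20), Jun (0.07 ± 0.20) and Jund (0.56 ± 0.20) lay within 2-fold. Higher AP-1 and ATF members were Fosl1 by at least 5.57-fold, Atf3 with -1.85 on NSC and 2.32 on NSCL61 (4.17 ± 0.22), Fosl2 with -0.10 on NSC and 2.84 on NSCL61 (2.94 ± 0.21) and Junb (1.63 ± 0.21). Ier5, an early response gene, was higher too (2.76 ± 0.21).

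Growth factor genes upstream of Ras were examined in the same way. Of the 15 EGF-family ligands and receptors 9 were evaluated, 2 were lower and 0 higher. Areg, the ligand amphiregulin, had -0.98 on NSC, -2.42 on NSC-Ceacam1L, -5.48 on NSCL61 and 3.34 on the hairpin array and was at least 12.5-fold lower, with the hairpin array the highest. Egfr, its receptor, had 4.49 on NSC, 4.57 on NSC-Ceacam1L, 3.17 on NSCL61 and 0.15 on the hairpin array (-1.32 ± 0.20). Erbb2 (0.35 ± 0.21), Erbb4 (0.39 ± 0.20), Hbegf (0.69 ± 0.20), Nrg2 (0.39 ± 0.21), Egf (0.19 ± 0.35), Tgfa (-0.39 ± 0.40) and Epgn (-0.73 ± 0.36) lay within 2-fold. The other 6 genes of the list were not well above background on either array. In the PDGF, FGF, VEGF and HGF list 10 of 26 were higher and 3 lower, the latter 1 with normexp. The ligand Pdgfa had 2.30 on NSC and 4.63 on NSCL61 (2.33 ± 0.20), Pdgfb -3.63 on NSC and -1.61 on NSCL61 (2.02 ± 0.29), and Fgf18 -2.57 on NSC and -0.23 on NSCL61 (2.34 ± 0.23). The receptor Kit had -0.91 on NSC and 1.21 on NSCL61 (2.12 ± 0.21), and its ligand Kitl had -0.04 on NSC and 1.97 on NSCL61 (2.01 ± 0.20). Fgf12 was at least 12.7-fold and Fgf13 at least 4.61-fold lower, but Fgf12 differed by -0.85 in the authors' deposited table of processed values and Fgf13 by -0.95 with normexp, both under 2-fold. Fgf1 differed by -1.08 ± 0.21.

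In the insulin-like growth factor list 6 of 16 were higher and 4 lower. Igf2, a fetal growth factor, was at least 5.58-fold higher, with -6.15 on NSC, -6.71 on NSC-Ceacam1L, -1.77 on NSCL61 and -6.52 on the hairpin array, well above background on NSCL61 only. H19, the noncoding RNA of the same imprinted locus, had 1.26 on NSC, 0.69 on NSC-Ceacam1L, 5.26 on NSCL61 and -4.78 on the hairpin array (4.0 ± 0.20). The receptor Igf2r, which clears Igf2, differed by 1.22 ± 0.20. The binding proteins went both ways. Igfbp5 had 2.16 on NSC and 6.23 on NSCL61 (4.08 ± 0.20), Igfbpl1 -2.33 on NSC and 1.58 on NSCL61 (3.91 ± 0.22) and Igfbp6 -2.85 on NSC and -0.67 on NSCL61 (2.18 ± 0.24), while Igfbp4 had 0.03 on NSC and -3.86 on NSCL61 (-3.90 ± 0.28), Igfbp3 2.61 on NSC and -0.21 on NSCL61 (-2.82 ± 0.20) and Igfbp2 6.16 on NSC and 3.62 on NSCL61 (-2.54 ± 0.20). The RNA-binding protein Igf2bp3 was lower (-1.48 ± 0.22). Other imprinted genes on the lower side were Usp29 (-3.08 ± 0.35), the noncoding RNA Mirg (levels -3.91 on NSC and -6.64 on NSCL61), Nnat (-2.29 ± 0.20), Peg3 (-2.17 ± 0.21) and Ndn (-1.26 ± 0.20), in a list with 5 higher and 7 lower of 27.

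Genes of the STAT3 pathway were higher in 13 of 24 cases and lower in 2. The median was 1.51, or 1.01 with the genes seen on 1 array at their bound, and it stayed between 0.72 and 1.77 under the alternatives. Osmr, the oncostatin M receptor, was at least 18.3-fold higher, with -5.47 on NSC, 0.50 on NSC-Ceacam1L, -0.05 on NSCL61 and 1.46 on the hairpin array. NSC was the only array where it was not seen. Il6ra, the interleukin 6 receptor, had -2.17 on NSC and 2.38 on NSCL61 (4.55 ± 0.22). Of the targets, Socs3, the feedback inhibitor of the pathway, had 0.18 on NSC, 4.92 on NSC-Ceacam1L, 4.48 on NSCL61 and 3.92 on the hairpin array (4.30 ± 0.20), and Cebpd, a transcription factor, had 2.80 on NSC, 4.34 on NSC-Ceacam1L, 6.63 on NSCL61 and 5.97 on the hairpin array (3.83 ± 0.20). For both, NSC was the lowest array. The acute phase inhibitor Serpina3n was at least 12-fold higher. The 2 lower genes were the receptor Lifr (-1.65 ± 0.20) and the protease inhibitor Timp1 (-1.14 ± 0.21).

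Cytokine genes of the same family were seen on NSCL61 and not on NSC. Lif, leukemia inhibitory factor, had -6.19 on NSC and -0.85 on NSCL61 and was at least 10.5-fold higher, and Il11 had -4.49 on NSC and -0.99 on NSCL61 and was at least 9.55-fold higher. In the whole list of chemokines, cytokines and NF-kB genes 10 of 31 were higher and 5 lower. Ccl7, a monocyte chemokine, was at least 18.3-fold and the interleukin 1 receptor Il1r1 at least 6.93-fold higher. Tnfaip2, a gene induced by tumour necrosis factor, was at least 28.6-fold, the cytokine Tslp at least 4.88-fold and the chemokine Cxcl12 at least 1.78-fold lower. Cx3cl1, the neuronal chemokine fractalkine, differed by -2.14 ± 0.20, and the receptor Tnfrsf19 by -1.74 ± 0.20.

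Of 31 BMP and TGF-beta genes evaluated, 13 were higher and 1, Bmp7 as given above, was lower, and the median was 0.63. With normexp and over genes seen on both arrays 9 were higher, and with spike-in scaling 11 were higher and 3 lower. The list mixes ligands, receptors and inhibitors, so these counts do not give the direction of signalling. Tgfb1, the main ligand, was at least 6.13-fold higher, with -5.55 on NSC, -4.85 on NSC-Ceacam1L, -1.63 on NSCL61 and 0.32 on the hairpin array, and Ltbp1, which holds it in the matrix, had -0.86 on NSC, -0.62 on NSC-Ceacam1L, 1.84 on NSCL61 and 4.03 on the hairpin array (2.70 ± 0.21). Of the targets, Tgfbi, a secreted matrix protein, had -4.13 on NSC, -4.97 on NSC-Ceacam1L, 0.05 on NSCL61 and 0.03 on the hairpin array (4.17 ± 0.35). Both NSCL61 arrays were above both NSC arrays for these 3 genes. Bmp6 was at least 2.23-fold higher.

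Notch genes, which keep neural stem cells undifferentiated, mostly lay within 2-fold: 2 of 24 were higher, 1 with normexp, and 3 lower. Of the receptors, Notch1 differed by 0.47 ± 0.21, Notch2 by 0.38 ± 0.20, Notch3 by 0.25 ± 0.20 and Notch4 by 0.75 ± 0.21. The ligands Dll1 (0.41 ± 0.20), Dll3 (0.61 ± 0.20), Jag1 (0.72 ± 0.21) and Dner (0.58 ± 0.20) also lay within 2-fold, as did the sugar transferases Lfng (-0.78 ± 0.20), Mfng (-0.19 ± 0.20) and Rfng (-0.45 ± 0.20). Among the targets Hes5 was lower, with 7.18 on NSC, 6.63 on NSC-Ceacam1L, 6.01 on NSCL61 and -6.06 on the hairpin array (-1.17 ± 0.20), and Nrarp, a feedback inhibitor, was lower (-1.41 ± 0.20). Hes1 (0.19 ± 0.21), Hes6 (0.88 ± 0.20), Hes7 (0.49 ± 0.20) and Hey1 (0.80 ± 0.20) lay within 2-fold, and Hey2 was at least 2.62-fold higher. Dtx1, a ubiquitin ligase and Notch target, had 2.96 on NSC and -0.25 on NSCL61 (-3.21 ± 0.20), while Dtx4 differed by 0.33 ± 0.20. The antagonist Numbl was higher (1.83 ± 0.20), and Numb (0.30 ± 0.23), Rbpj (0.21 ± 0.20) and Maml2 (-0.60 ± 0.20) lay within 2-fold.

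Wnt genes were lower in 14 of 45 cases, 7 with normexp, and higher in 9. Among the ligands Wnt7b had 1.09 on NSC and 4.16 on NSCL61 (3.08 ± 0.20) and Wnt5b 0.92 on NSC and 3.60 on NSCL61 (2.68 ± 0.20), and Wnt9a was at least 9.31-fold higher, whereas Wnt2 and Wnt3 were at least 5.45-fold and 2.85-fold lower. Rspo3, which strengthens Wnt signals, was at least 11.5-fold higher, and the antagonists Sfrp2 (-4.87 ± 0.28) and Frzb (at least 4.19-fold) were lower. The nuclear factor Lef1 was higher (2.88 ± 0.29), and Sp5, a target gene, at least 1.56-fold lower. In the hedgehog list 1 of 13 was higher, the factor Gli2 (1.10 ± 0.27), and 2 were lower. With normexp 0 were higher, and with spike-in scaling 0 were higher and 4 lower. Hhip, which binds and restrains hedgehog ligands, had 0.53 on NSC, -0.45 on NSC-Ceacam1L, -6.51 on NSCL61 and 1.86 on the hairpin array and was at least 35.5-fold lower, with NSCL61 the only array where it was not seen, and the co-receptor Cdon differed by -2.10 ± 0.20.

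Mesenchymal transition genes were higher in 18 of 37 cases, 11 among genes seen on both arrays, and lower in 5, the latter 2 with normexp, with a median of 0.99. After S100a4, Cnn1 and Anxa1 the largest were Ahnak, a giant scaffold protein at the membrane, with -4.55 on NSC, -1.13 on NSC-Ceacam1L, 2.97 on NSCL61 and 4.99 on the hairpin array, its probe being not well above background on NSC, and the transcription factor Twist2, with -6.57 on NSC, -7.14 on NSC-Ceacam1L, 0.61 on NSCL61 and 4.64 on the hairpin array, at least 29.0-fold higher. Both were higher on both NSCL61 arrays than on both NSC arrays. The related factor Twist1 was at least 12.3-fold higher. Snai2, another factor of the transition, was at least 1.67-fold lower, with -3.88 on NSC, -7.0 on NSC-Ceacam1L, -6.79 on NSCL61 and 2.82 on the hairpin array, and so was the caveolar protein Cav1, by at least 1.66-fold. Thy1, a surface protein of neurons and fibroblasts, had 1.00 on NSC, 3.71 on NSC-Ceacam1L, -3.21 on NSCL61 and -6.73 on the hairpin array (-4.20 ± 0.24). Tagln, an actin-binding protein of smooth muscle, was lower (-1.25 ± 0.20), and Anxa3 at least 2.08-fold lower. Of the fibroblast marker list 4 genes were higher and 2 lower, and Dcn, Lum, Pdgfrb and Postn were not seen on either array. The pericyte list gave 3 higher and 2 lower of 6.

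Matrix genes went both ways, with 13 of 53 higher, 8 with normexp, and 16 lower. Beside the collagen VI chains, Spp1, osteopontin, had -4.62 on NSC, -6.30 on NSC-Ceacam1L, -0.39 on NSCL61 and 6.06 on the hairpin array and was at least 14.47-fold higher, the fibrillar chain Col11a1 differed by 2.35 ± 0.21, and tenascin N, Tnn, was at least 1.17-fold higher. Several basement membrane genes were lower, beside Col26a1. Lama1, a laminin chain, had 1.56 on NSC, 1.85 on NSC-Ceacam1L, -6.57 on NSCL61 and -6.54 on the hairpin array and was at least 73.0-fold lower. Nid1, nidogen, which links laminin to collagen IV, had 0.24 on NSC, 2.71 on NSC-Ceacam1L, -6.56 on NSCL61 and 3.37 on the hairpin array and was at least 29.1-fold lower. The neighbouring X-linked collagen IV genes Col4a5, at least 52.9-fold, and Col4a6, with 0.32 on NSC and -4.46 on NSCL61, were lower, the last by a probe not well above background on NSCL61. A second Col4a6 probe, well above background on both arrays, went the other way, with -2.15 on NSC and -1.29 on NSCL61. Nid1 was not seen on NSCL61 alone, and Lama1 on neither NSCL61 array.

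Receptors and enzymes that act on the matrix followed. Of 16 integrins 7 were higher, 4 with normexp, and 2 lower. Itga3 was at least 2.16-fold higher, Itga1 (2.36 ± 0.27), Itga4 (1.76 ± 0.22) and Itga9 (1.57 ± 0.22) were higher, and Itgb4 was at least 2.94-fold higher, while Itgb3 and Itgb6 were at least 6.89-fold and 4.02-fold lower. Of 30 proteases and inhibitors 11 were higher and 6 lower, with a median of 0.29 that became -0.03 with no filter on dim probes. The macrophage elastase Mmp12 was at least 9.87-fold, Mmp19 at least 7.12-fold and Adamts15 at least 2.95-fold higher, and the inhibitor Timp3 had 3.60 on NSC and 7.52 on NSCL61 (3.92 ± 0.20). The inhibitors Timp4, with 4.26 on NSC and 0.06 on NSCL61 (-4.20 ± 0.20), and Serpine2 (-2.52 ± 0.20) were lower, and so were Mmp15 (-1.59 ± 0.20), Mmp17 (-1.35 ± 0.20) and Adamts10 (levels -2.94 on NSC and -4.60 on NSCL61), which turned to 0.43 with the mean over all its probes. In the S100 family 5 of 12 were higher and 1 lower. S100a3, the neighbour of S100a4, had -3.45 on NSC and 1.91 on NSCL61 (5.35 ± 0.28), S100b had 1.47 on NSC and 3.71 on NSCL61 (2.24 ± 0.20) and S100a10 differed by 1.54 ± 0.20. S100a14 was at least 2.22-fold higher and S100a1 at least 18.8-fold lower.

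AP-1, the factor formed by Fos and Jun proteins, binds the motif TGACTCA. On either strand this motif was in 134 of the 1701 higher genes with a promoter window (7.88%), in 75 of the 1639 lower ones (4.58%) and in 575 of the 12016 evaluated ones (4.79%). It was in 1709 of all 32851 windows (5.20%). The ETS motif CCGGAAGT was in 57 of the higher genes (3.35%), 77 of the lower ones (4.70%) and 953 of those evaluated (7.93%), and the CArG box was in 41 (2.41%), 28 (1.71%) and 202 (1.68%). Shown are 3 higher genes with an AP-1 match before the start, chosen after their values were seen, with the 170 bases before it, 5′ to 3′ on the strand of the gene, and the match in capitals. Anxa2, an annexin of the plasma membrane, was at 3.44 on NSC and 7.01 on NSCL61 (3.57 ± 0.20), and Col6a1 and Gja1 differed by 9.85 ± 0.28 and 3.53 ± 0.21.
Anxa2: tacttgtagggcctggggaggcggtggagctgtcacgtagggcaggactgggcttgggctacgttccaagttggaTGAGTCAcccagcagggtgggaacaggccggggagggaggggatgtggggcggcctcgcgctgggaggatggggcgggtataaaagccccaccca
Col6a1: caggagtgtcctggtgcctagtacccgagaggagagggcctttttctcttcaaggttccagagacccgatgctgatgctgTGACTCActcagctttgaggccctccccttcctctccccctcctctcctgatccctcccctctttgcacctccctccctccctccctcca
Gja1: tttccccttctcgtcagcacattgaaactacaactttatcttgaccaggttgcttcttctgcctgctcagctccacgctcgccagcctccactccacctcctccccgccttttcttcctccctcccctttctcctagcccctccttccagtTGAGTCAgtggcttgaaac

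The match began -95 bases from the start in Anxa2 (chr9:69453513-69453682, plus strand), -90 in Col6a1 (chr10:76726045-76726214, minus strand) and -19 in Gja1 (chr10:56377130-56377299, plus strand). A match describes these letters only, and binding was not measured.

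Adhesion and guidance genes were mixed. Among 41 cadherins and adhesion genes 9 were higher and 11 lower. Icam1, a leukocyte adhesion receptor, was at least 6.38-fold higher, Pcdh15 had -0.44 on NSC and 3.44 on NSCL61 (3.87 ± 0.21), Cdh11 differed by 2.04 ± 0.21, Cdh13 by 1.68 ± 0.20 and the endothelial cadherin Cdh5 was at least 1.58-fold higher. Pcdh17 had 2.95 on NSC and -1.08 on NSCL61 (-4.02 ± 0.21), Lrrc4c differed by -2.93 ± 0.21, Chl1 by -2.82 ± 0.21 and Cdh4 by -1.96 ± 0.20, and Cntn3 was at least 1.70-fold lower. Of 47 axon guidance genes 14 were higher and 8 lower. The semaphorin Sema3e was at least 11.2-fold higher, its receptor Plxnd1 had 2.99 on NSC and 5.77 on NSCL61 (2.79 ± 0.20), and Efna1 (2.63 ± 0.21), Sema7a (2.15 ± 0.21) and Sema3f (2.11 ± 0.31) were higher. Ntn4 (-2.91 ± 0.24), Efnb3 (-2.63 ± 0.22), Sema3a (-1.97 ± 0.22), Unc5a (-1.51 ± 0.20) and Ephb1 (-1.39 ± 0.20) were lower. Of 34 Src-family and focal adhesion genes 5 were higher, led by the scaffold Bcar1, p130Cas (2.58 ± 0.20), and 3 were lower, led by the kinase Lyn with -0.24 on NSC and -4.52 on NSCL61 (-4.28 ± 0.33).

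Both metabolic lists held more lower than higher genes. For cholesterol and fatty acid synthesis, 16 of 35 were lower and 1 was higher, and the median of -0.90 stayed between -1.11 and -0.84 under the alternatives. Dhcr7, the last enzyme of cholesterol synthesis, had 3.1 on NSC and 0.45 on NSCL61 (-2.65 ± 0.20), the cholesterol carrier Stard4 differed by -2.06 ± 0.20 and the fatty acid elongase Elovl6 by -1.68 ± 0.20. The sterol exporters went opposite ways, with Abcg1 at -0.48 on NSC and -4.0 on NSCL61 (-3.53 ± 0.28) and Abca1 at 1.74 on NSC and 4.05 on NSCL61 (2.31 ± 0.20). In the hypoxia and glycolysis list 8 of 38 were lower and 4 higher. After Slc16a3, the carbonic anhydrase Car12 was at least 5.86-fold lower, and the oxygen sensor Egln3 (-2.06 ± 0.20), the kinase Pdk1 (-1.98 ± 0.21) and the glucose transporter Slc2a1 (-1.45 ± 0.20) were lower. Car9, another carbonic anhydrase induced by low oxygen, was at least 11.1-fold higher, and P4ha2 (1.65 ± 0.20), Adm (1.37 ± 0.20) and Pfkfb3 (1.30 ± 0.20) were higher.

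Stress and detoxification genes went both ways. In the integrated stress response and serine synthesis list 7 of 31 were higher and 5 lower. The stress factors Trib3, with -1.78 on NSC and 2.64 on NSCL61 (4.41 ± 0.22), Ddit3, the factor CHOP, with -0.58 on NSC and 2.94 on NSCL61 (3.52 ± 0.21), Chac1 (2.93 ± 0.21) and Herpud1 (1.72 ± 0.20) were higher beside Nupr1. The 5 lower ones were enzymes or carriers of serine, glycine and folate metabolism, namely Slc6a9 (-2.80 ± 0.20), Shmt1 (-2.67 ± 0.22), Phgdh (-1.54 ± 0.20), Mthfd1l (-1.49 ± 0.20) and, for proline, Pycr1 (-1.53 ± 0.22). Of 39 glutathione and aldehyde genes 9 were higher and 8 lower. After Gstk1, the glutathione peroxidases Gpx7 and Gpx3 were at least 24.1-fold and 21.8-fold lower, the transferase Gstt3 at least 27.2-fold and the quinone reductase Nqo1 at least 9.15-fold. Aldh1a1, a retinal dehydrogenase, had -0.66 on NSC and 3.19 on NSCL61 (3.85 ± 0.21), Aldh1l2 differed by 3.01 ± 0.21, Aldh1a3 by 2.26 ± 0.24, and Gsta2 and Mgst2 were at least 1.92-fold and 1.35-fold higher.

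Immune genes were divided. Antigen presentation genes were lower in 7 of 21 cases, 4 with normexp and 3 among genes seen on both arrays, and higher in 1, the peptide loading protein Tapbp (1.70 ± 0.20). Beside H2-Ab1, the class II chain H2-Eb1 was at least 2.89-fold, the proteasome subunits Psmb9 and Psmb8 at least 6.31-fold and 2.23-fold and the peptide transporter Tap1 at least 1.66-fold lower. Interferon response genes were higher in 11 of 33 cases, 5 with normexp, and lower in 6. Gbp2 had -1.0 on NSC and 2.58 on NSCL61 (3.58 ± 0.21), Ifit3 -2.49 on NSC and 0.19 on NSCL61 (2.67 ± 0.22) and Ifit2 -1.82 on NSC and 0.33 on NSCL61 (2.15 ± 0.21), and Xaf1 and Irf7 were at least 2.46-fold and 1.26-fold higher. Rtp4 (-2.44 ± 0.22), Ifitm3 (-1.91 ± 0.22) and Gbp3 (-1.76 ± 0.21) were lower, and Mx1 and Oasl2 at least 5.60-fold and 4.85-fold lower. In the complement list, 7 of 21 genes were evaluated. C4b and C3 (1.10 ± 0.21) were higher, and C2 (-3.18 ± 0.22) and Masp1 (at least 8.48-fold) lower. Masp1 came to -0.65, under 2-fold, with only probes named through an accession, and C3 was under 2-fold with normexp and with spike-in scaling.

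Genes often used to mark glioma stem cells gave 6 higher and 7 lower of 35, the latter 4 with normexp and 11 with spike-in scaling. Cd44, the hyaluronan receptor, had 0.47 on NSC, 0.76 on NSC-Ceacam1L, 3.50 on NSCL61 and 4.62 on the hairpin array (3.03 ± 0.20), and was highest on the 2 NSCL61 arrays. Chil1, a secreted protein of mesenchymal glioma, was at least 21.3-fold higher, Mycn had -2.31 on NSC and -0.12 on NSCL61 (2.19 ± 0.22), Cd24a 3.19 on NSC and 5.19 on NSCL61 (2.0 ± 0.20) and Cd109 1.14 on NSC and 3.12 on NSCL61 (1.98 ± 0.20). On the lower side, beside Prom1 and Fut4, the growth factor Ptn differed by -1.43 ± 0.20 and the chromatin protein Hmga2 by -1.18 ± 0.21. Of 33 apoptosis genes 6 were higher (18.2%) and 5 lower (15.2%), near the 14.4% and 14% of all genes. Hrk (2.80 ± 0.32) and Bcl2l11 (2.31 ± 0.30), which promote cell death, were higher beside Fas and Bbc3, and Casp1 at least 2.82-fold higher. Bok (-3.39 ± 0.20), Dapk2 (-2.29 ± 0.21) and Bcl2 (-1.47 ± 0.21) were lower, and Casp8 at least 5.14-fold lower. Of 41 chromatin genes 6 were lower, among them Hells (-2.13 ± 0.25), Tet1 (-1.49 ± 0.20), Suv39h1 (-1.46 ± 0.20) and Uhrf1 (-2.34 ± 0.20), and 3 were higher, Hdac9 (1.74 ± 0.24), Ezh1 (1.04 ± 0.20) and Dnmt3l (at least 1.93-fold), of which 1 stayed past 2-fold with spike-in scaling and 1 with normexp. Of 8 keratins 2 were higher, and none with normexp, Krt8 (1.48 ± 0.32) and Krt6a (at least 1.28-fold).

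Genes with steady roles gave few calls. None of the 49 ribosomal protein genes differed by 2-fold, and their median was -0.30, where the median of all genes was 0.03. Of 20 housekeeping genes 1 was lower, Hprt, at 3.49 on NSC, 1.94 on NSC-Ceacam1L, 2.12 on NSCL61 and 5.42 on the hairpin array (-1.37 ± 0.20). Xist, the RNA that silences one X chromosome, had 1.85 on NSC, 1.26 on NSC-Ceacam1L, 0.42 on NSCL61 and -4.05 on the hairpin array (-1.43 ± 0.20). The share of each list past 2-fold is drawn beside that of all genes. Scaling to the spike-in probes moved the median of all genes from 0.03 to -0.18, and each list with it.

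**Figure D4:**
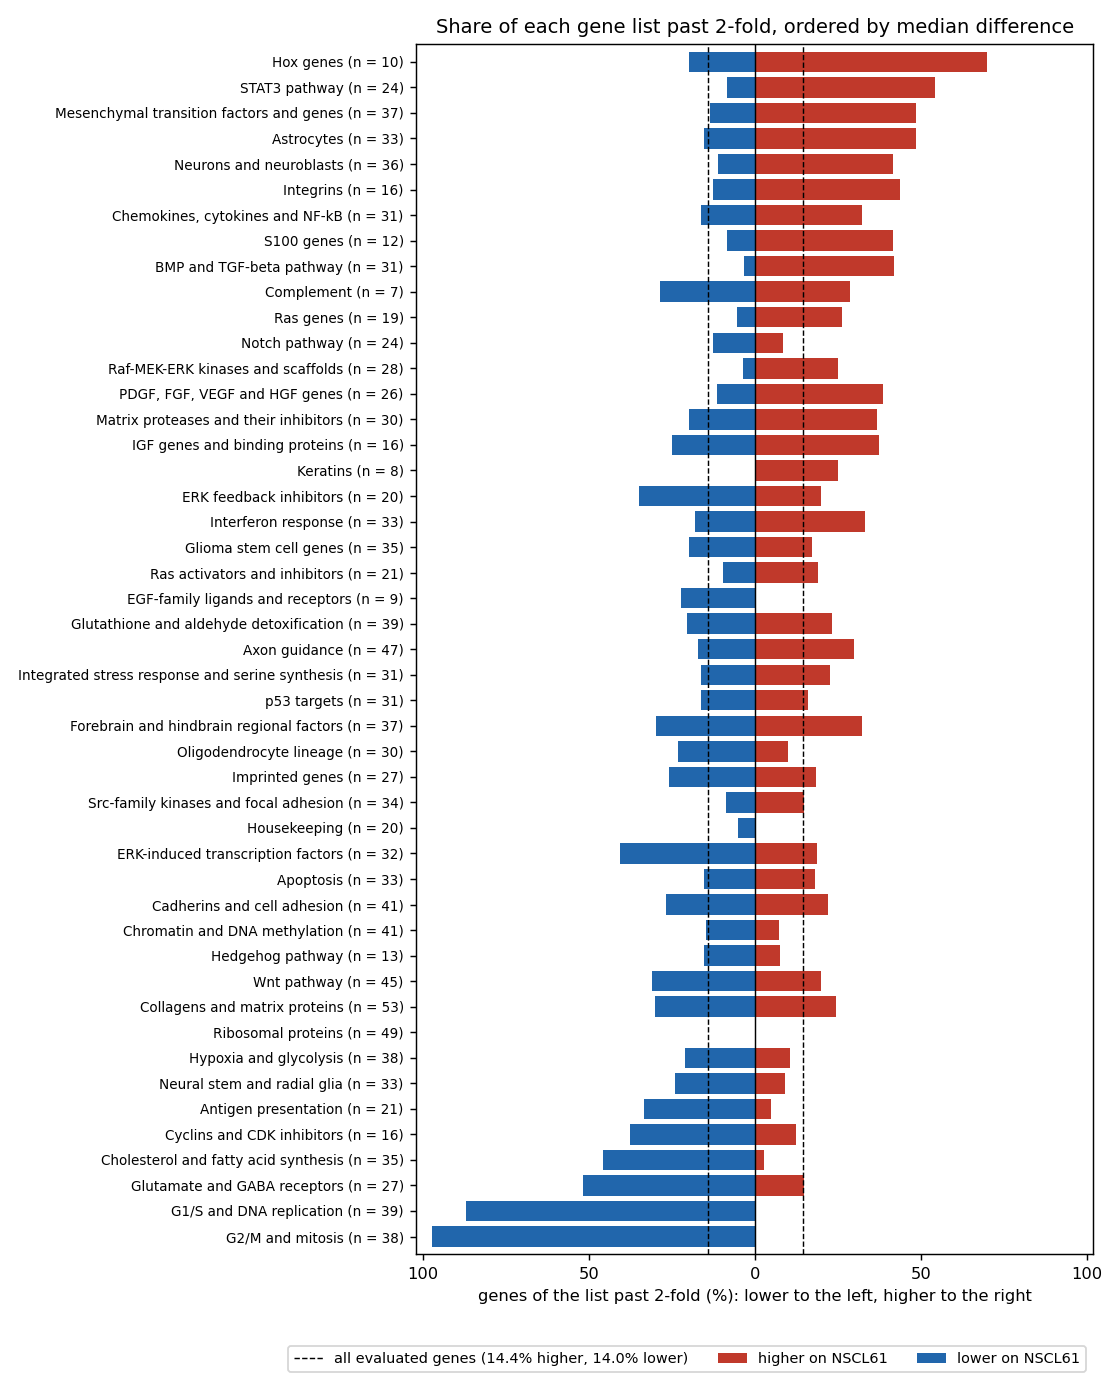
Percentage of the evaluated genes of each list that were higher (right, red) or lower (left, blue) on NSCL61 by 2-fold or more, ordered by the median difference, with the number evaluated beside each name. Dashed lines mark the 14.4% and 14% of all evaluated genes, and the G1/S and G2/M lists reach farthest to the left while the Hox and STAT3 lists reach farthest to the right.

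Differences were also ordered along the chromosomes, using the RefSeq order of genes for 15300 of the 15319. The division was made after the values were seen, and is a description. Genes of chromosome 10 were higher as a group: of 737 evaluated 211 were higher by 2-fold (28.6%) and 65 lower (8.82%), and their median difference was 0.54. No other chromosome had a median above 0.33, which was that of chromosome 8 (796 genes, 151 higher and 71 lower). On chromosome X the reverse was seen, with 47 of 563 genes higher (8.35%), 145 lower (25.8%) and a median of -0.28. The remaining chromosomes had medians from -0.21, on chromosomes 6, 14 and 18, to 0.21, on chromosomes 17 and 19.

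On chromosome 10 the shift ran along the whole length. Cut into 5 stretches of 147 or 148 genes in order, the medians were 0.60, 0.48, 0.47, 0.52 and 0.66, and between 71.6% and 81.0% of the genes in each stretch lay above 0. Chromosome 8 had medians from 0.17 to 0.42 over its 5 stretches and chromosome X from -0.49 to -0.05. Col6a1, Col6a2 and Gja1, named above, lie on chromosome 10. On the other arrays chromosome 10 had no raised median against the shared NSC array: it was -0.18 for NSC-Ceacam1L minus NSC, where the chromosomes ranged from -0.18 to -0.06, and -0.07 for NSCL61-Ceacam1sh minus NSC, where they ranged from -0.35 to 0.25. The median for chromosome 10 in NSCL61 minus NSC was between 0.27 and 0.57 under the alternatives, the lowest with normexp background correction. Genome copy number was not measured.

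**Figure D5:**
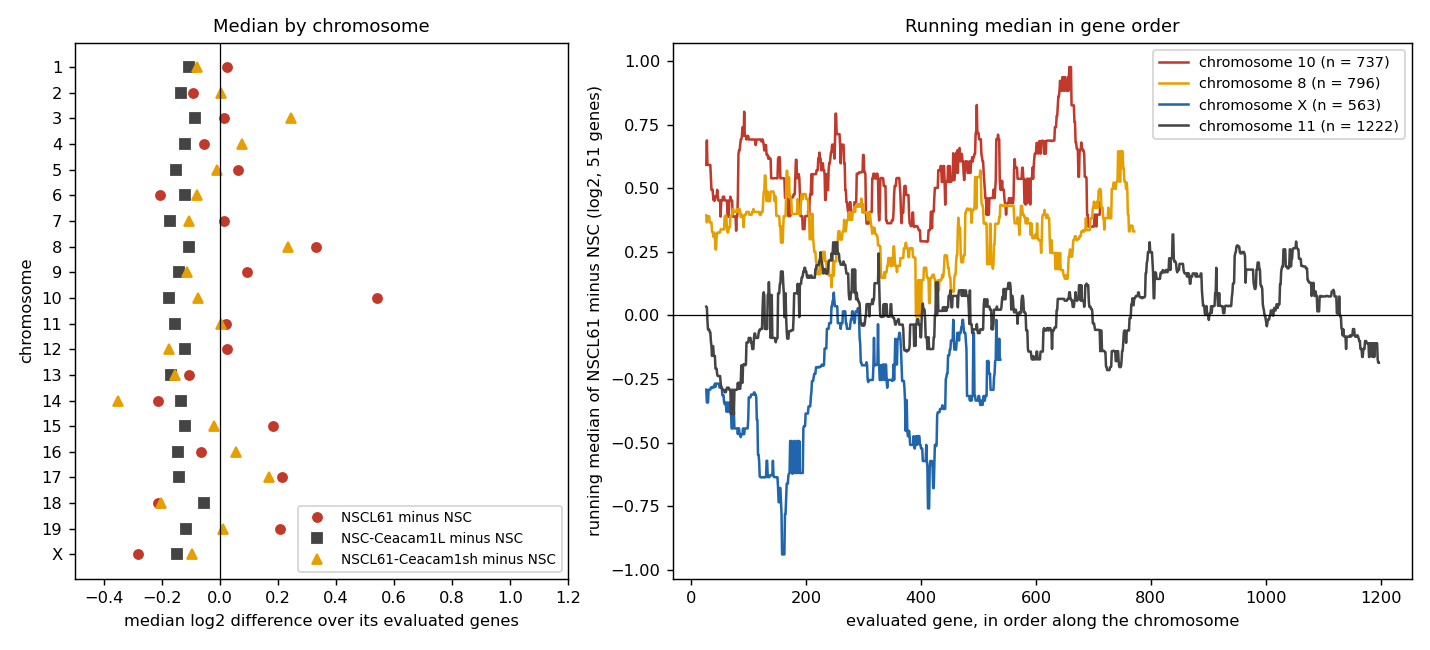
Left, the median log2 difference from NSC over the evaluated genes of each chromosome, for NSCL61 (circles), NSC-Ceacam1L (squares) and NSCL61-Ceacam1sh (triangles). Right, the running median over 51 genes of NSCL61 minus NSC in gene order, where chromosome 10 lies above 0 throughout, chromosome 8 mostly above, chromosome X mostly below and chromosome 11, shown for comparison, around 0.

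Genes next to each other in the order of evaluated genes and called alike formed 143 runs of 3 or more, holding 493 genes. Genes that were not evaluated were skipped, so members of a run need not be direct neighbours. With 14.4% of all genes higher and 14% lower, some runs form without any clustering. Their expected number was not computed, so the count does not show clustering. The longest took in Hoxa2 to Hoxa7. The genes of these runs are named after their values were seen. A pair of runs of 7 higher genes lay on chromosome 10, one of them from Os9 to Dctn2 and the other from Ppm1h to Lrig3. Another run of 7, of lower genes, lay on chromosome 7. A run of 6 lower genes on chromosome 13 consisted of the histone genes H4c11, H4c12, H2ac15, H1f5, H3c11 and H2ac22, whose RNAs are made during DNA replication. On chromosome 1 the interferon-inducible genes Ifi204, Mndal, Ifi211 and Ifi203 and the pseudogene Ifi203-ps formed a run of 5 higher genes. Near-identical copies in such families can share probe signal, so their members are not independent measurements.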

How the data were processed

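RNA from 4 mouse neural cell samples was labelled with Cy3 and hybridised to 4 single-colour Agilent arrays of 1 slide, 1 array per group, so position on the slide and group cannot be told apart. Signal intensities were read from the deposited scanner files, which were made, per the file headers, with Feature Extraction 10.7.3.1. Version 9.1 is the one given in the submitters' processing notes. The authors' deposited table of log2 values was used as an alternative. It followed the scanner signals with a slope of 1.00, its column medians were 0.25 for NSC and 0.00 for NSCL61, and its centring is not known. Probe coordinates are mm9, per the file headers.

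The processed signal was scaled to the 75th percentile of the non-control spots of each array before log2, and control and outlier spots were left out. The NSC file had been saved again, with 58 altered gene names and signals rounded to 3 digits, and for that reason gene names come from the files of the remaining arrays. Of the 55681 probes 27318 were named through an accession, 3527 through a symbol, 553 through an older symbol, 59 by the file and 24224 not at all, using RefSeq tables. The probe with the highest mean over the 4 arrays stood for a gene. The arrays differ in brightness little, with 75th percentiles of 480.0 for NSC and 438.77 for NSCL61, and 27414 and 29335 probes well above background, and their number limits the precision.

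Genes named are the 15 largest differences in each direction among genes measured on both arrays, the 8 largest bounds in each direction, up to 5 members of each list past 2-fold in each direction, members of the Ras, EGF, ERK feedback, cyclin and Notch lists whatever their difference, and a few label checks. Unnamed gene models were counted only. Some genes, members of these lists included, are not reported here by name and stay in the list counts. The genes compared and the lists were chosen with earlier results of these data known. Alternatives changed the scaling, background correction, filter, fold, probe rule, naming and source of values. The steps were tested on simulated data. Python 3.11.15, numpy 2.4.6, pandas 2.3.3, R 4.3.3 and limma 3.58.1 were used.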

Additional observations from a re-analysis of the deposited data

Results flagged for a closer look

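Probes without a gene name stand outside the comparison of genes. Of the 9996 that were well above background on either array, 1457 were higher on NSCL61 by 2-fold or more (14.6%) and 1185 were lower (11.9%), beside 14.4% and 14% of the named genes. The largest difference among those measured on both arrays was 6.02 ± 0.27, for a probe that the file calls NRON, at chr2:33668706-33668765 in mm9. The lowest was -5.33 ± 0.23, for a probe at chr14:105993043-105993102 in mm9. These values were drawn out because no gene comparison used them.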

How the results depend on the processing

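With 1 array per group no value has a replicate check, no replicate could be left out, and the errors given cover the scanner only. No paired analysis was possible because each group had 1 array. The counts of 2204 higher and 2143 lower genes became 1380 and 1393 with normexp background correction, 3577 and 3352 at 1.5-fold, and 997 and 1068 at 4-fold. Restricted to genes measured on both arrays, 1400 were higher. Of all calls 50.7% were higher, and 41.0% with spike-in scaling, which moved the median of all genes to -0.18. List medians farther from 0 changed sign in these cases: ERK feedback inhibitors to -0.0426 with no filter on dim probes and also over genes measured on both arrays, Hox genes to -0.3614 with no filter, matrix proteases to -0.0283 with no filter and -0.0939 over genes measured on both arrays, chemokines and cytokines to -0.0646 with no filter, keratins to -0.1157 with no filter and -0.0287 over genes measured on both arrays, and the IGF genes to -0.0037 with the mean over all probes and -0.0892 with only probes named through an accession. Medians nearer 0 changed sign too. With spike-in scaling those of the Ras activators, EGF-family, p53 target, glioma stem cell, oligodendrocyte, regional, axon guidance, interferon, stress response, glutathione and imprinted lists came to between -0.1817 and -0.0108. The EGF-family median became -0.3681 with no filter and -0.0965 with only probes named through an accession, that of the regional factors -0.1659 with no filter and that of the glioma stem cell genes -0.1003 with the mean over all probes. The imprinted genes came to between -0.2141 and -0.0136 with no filter, median scaling, the mean over all probes and accession naming, and the Src-family list to between 0.0150 and 0.0404 with cyclic loess, the deposited table and genes measured on both arrays. Of the named genes, Adamts10 turned to 0.4251 with the mean over all probes and Grik1 to -0.6225 with only probes named through an accession. With normexp 71 named genes past 2-fold came under it, namely Adamts10, Adamts15, Anxa3, Aurkb, Bmp6, Btg2, C3, Casp1, Cav1, Cdh5, Cdkn1c, Cntn3, Cxcl12, Dlx1, Dnmt3l, Dusp2, Dusp5, Dusp7, Enpp6, Ezh1, Fgf1, Fgf13, Fut4, Gab2, Gabbr2, Gabra2, Gata3, Gli2, Gpr37, Gria3, Grik1, Gsta2, H2-Eb1, Hey2, Hmga2, Hoxa6, Hoxaas3, Igf2bp3, Irf7, Irx2, Itga3, Itgb4, Itgb6, Krt6a, Krt8, Lmx1a, Mal, Mbp, Mgst2, Mirg, Mndal, Oasl2, Orc1, Perp, Psmb8, Pycr1, Rasa4, Rasd1, Rasl11a, Rasl12, Rbfox3, Reln, Rin1, Shc3, Snai2, Sp5, Spred3, Tap1, Tnn, Wnt3 and Xaf1. With the mean over all probes 10 did so: Cdkn1a to 0.9959, Dlx1 to 0.93, Dusp7 to -0.77, Grik1 to 0.45, Grik3 to 0.93, Itga4 to 0.27, Mbp to -0.95, Mirg to -0.87, Pdgfb to 0.83 and Pycr1 to -0.80. Dcxr became 0.60 with only probes named through an accession, and the other settings took at most 8 each, mainly genes close to 2-fold. Over genes measured on both arrays, the collagen and matrix list had 8 higher and 9 lower genes, matrix proteases 6 higher, chemokines and cytokines 5 higher, regional factors 6 lower, glutathione genes 3 lower and Hox genes 0 higher. The filters differ by their construction in which genes enter a list, and the other causes were not tested. The chromosome medians were chosen after the data were seen. Small differences in dim genes are limited by signal over background.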
